A study of Homo sapiens with 12 samples.

Results

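The 7 genes described here encode enzymes that make catecholamines, recycle their cofactor or break them down: TH, DDC, DBH, GCH1, QDPR, MAOA and MAOB. They were picked by name from the 61044 identifiers of the gene count table, because TH, an enzyme of neurons and adrenal chromaffin cells, had reads in every FMOD hairpin library and in no control library. All 7 were found under a single identifier each. The counts that led to TH being picked are therefore given as a description, without a test, and the question asked of the other genes was whether TH RNA came with the rest of its pathway. The 12 RNA-seq libraries came from SCC-15, an established human oral squamous cell carcinoma line, and fall into 4 groups of 3. NC cells carried a negative control shRNA, and the shRNA1, shRNA2 and shRNA3 cells each carried a different hairpin against FMOD, which encodes the extracellular matrix proteoglycan fibromodulin. All cells were collected after 48 hours, and the labels do not say whether the 3 libraries of a group came from separate cultures or whether a hairpin line was a single clone, so the p-values measure the spread between these libraries only. The 3 comparisons with NC share the same NC libraries.

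Catecholamine synthesis starts when tyrosine hydroxylase, encoded by TH, converts tyrosine to L-DOPA; aromatic L-amino acid decarboxylase (DDC) then makes dopamine, dopamine beta-hydroxylase (DBH) makes noradrenaline, and PNMT makes adrenaline. Tyrosine hydroxylase needs tetrahydrobiopterin, whose synthesis begins with GTP cyclohydrolase (GCH1) and which is regenerated by dihydropteridine reductase (QDPR) and other enzymes. The monoamine oxidases MAOA and MAOB, on the outer mitochondrial membrane, deaminate dopamine, noradrenaline and other amines. Synthesis is best known from neurons and neuroendocrine cells but is not confined to them, while cofactor recycling and monoamine oxidation occur in many tissues, including epithelia.

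The deposited libraries held 17286934 to 19567192 counts each. The targeted gene FMOD had 2, 2 and 3 counts in the NC libraries and 0 counts in all 9 hairpin libraries. No library passed 3 counts, the floor used here, so a knockdown of FMOD could not be measured from these counts. Correlations across genes were 0.773 to 0.795 between NC and hairpin libraries and 0.897 to 0.989 among hairpin libraries. Within shRNA3, libraries 1 and 2 correlated at 0.987 with each other and at 0.911 and 0.908 with library 3, so results that rest on libraries 1 and 2 are given with and without them. Levels are CPM, counts divided by the library total in units of 1e6 reads, with totals scaled by the trimmed mean of M values (TMM). The keratinocyte marker list had a summed level of 2618 to 3498 CPM across all 12 libraries. Of its 10 genes, 5 were called higher with all 3 hairpins (KRT14, KRT6A, KRT17, PERP and DSP) and 2 lower, KRT5 from 964 to 1048 CPM in NC to 16.5 to 90.2 CPM and CDH1 from 310 to 335 CPM to 35.3 to 79.3 CPM. Of all tested genes, 16% were called higher and 19.7% lower with all 3 hairpins.

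The background of calls was large. A gene was called when the edgeR quasi-likelihood test gave a Benjamini-Hochberg adjusted p under 0.05 over the 17532 genes tested. Of these, 57.4% were called in shRNA1 against NC, 53% in shRNA2 against NC and 53.9% in shRNA3 against NC, so a single called gene is a common event in these data. The shares called higher and lower were 26.8% and 30.6% with shRNA1, 24.6% and 28.4% with shRNA2, and 26.4% and 27.6% with shRNA3. Of the 7 genes, 6 passed the filter on low counts and DDC did not. TH passed only through the hairpin libraries and DBH only through the NC libraries, so both had to differ. Such genes are described here without a p and, unless stated, left out of the counts of calls by list. The shares of all tested genes include such genes. Among the other 4 genes, 1 was called higher and none lower with shRNA1, 2 higher and 1 lower with shRNA2, and 2 higher and none lower with shRNA3, or 1 higher with shRNA3 library 3 alone. In bulk RNA, fewer cells of a type and less RNA per cell cannot be told apart.

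**Figure D1:**
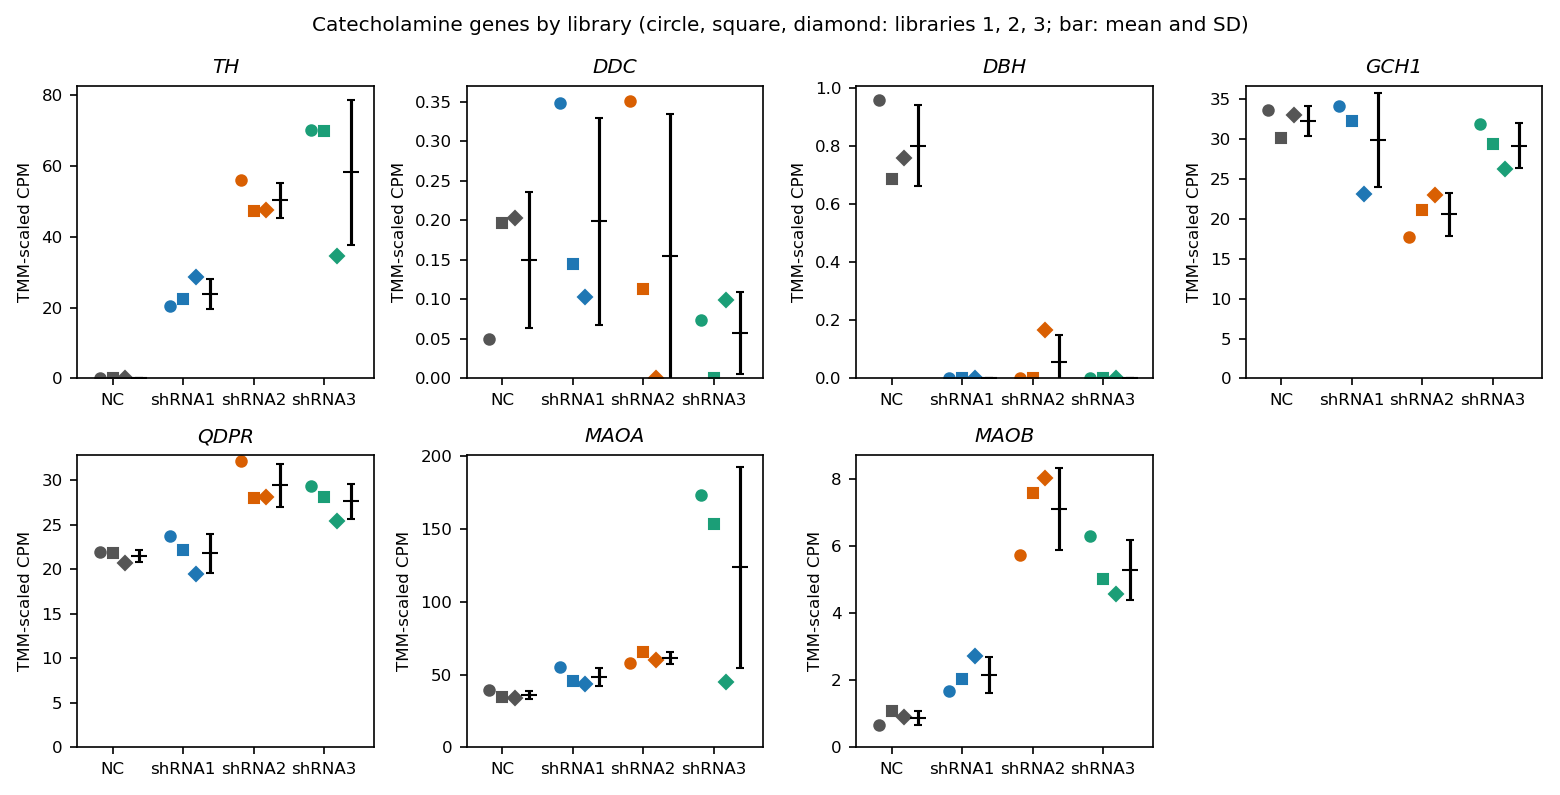
TMM-scaled CPM of the 7 genes, 1 panel a gene, each with its own linear axis from 0; points are the 3 libraries of each group and the black bar is the mean and SD. TH is at 0 in NC and at 20.5 to 70.0 CPM with the hairpins, DBH is seen almost only in NC, DDC never passes 0.351 CPM, and MAOB is higher with each hairpin.

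TH (ENSG00000180176; GRCh38 chromosome 11, 2163929 to 2171877, minus strand; no annotated gene overlaps it) had 0 counts in each NC library. With shRNA1 it had 412, 464 and 555 counts, or 20.5, 22.5 and 28.6 CPM (23.8 ± 4.25, SD, n = 3). With shRNA2 it had 956, 839 and 858 counts, or 55.9, 47.3 and 47.5 CPM (50.2 ± 4.93, SD, n = 3). The shRNA2 libraries all lay above the shRNA1 libraries, whose mean was 0.475 of theirs. With shRNA3 it had 945, 960 and 696 counts, or 70.0, 69.9 and 34.5 CPM (58.1 ± 20.5, SD, n = 3). After TMM scaling, libraries 1 and 2 of shRNA3 were the highest of all, and library 3 lay between the shRNA1 and shRNA2 libraries, so shRNA3 overlapped shRNA2 and not shRNA1. Against unscaled totals the means were 24.8 CPM with shRNA1, 50.4 with shRNA2 and 48.7 with shRNA3, so the order of the last pair depends on the scaling. Set against a floor of 3 counts per NC library, TH was at least 159-fold higher with shRNA1, at least 334-fold higher with shRNA2 and at least 387-fold higher with shRNA3, or at least 230-fold higher in shRNA3 library 3 alone.

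Per kilobase of exon, the TH mean was 7.35 CPM with shRNA1, 15.5 CPM with shRNA2 and 17.9 CPM with shRNA3. These levels were above those of 66.4%, 81.9% and 82.8% of the tested genes with a known length. TH RNA was thus in the upper part of the range of expressed genes in all 3 hairpin groups. In NC the order per kilobase was GCH1 at 10.9 CPM, QDPR at 7.04, MAOA at 6.51, MAOB at 0.306, DBH at 0.213, DDC at 0.0478 and TH at 0. QDPR and MAOA overlapped in that order, as did their neighbours MAOB and DBH. In shRNA1 the TH libraries, at 6.31 to 8.82 CPM per kilobase, overlapped QDPR at 6.36 to 7.78 and MAOA at 7.84 to 9.99. In shRNA2 TH was the highest of the 7, its lowest library at 14.6 CPM per kilobase being above the highest MAOA library at 11.9. In shRNA3 the MAOA libraries, at 8.11 to 31.3 CPM per kilobase, overlapped those of TH at 10.6 to 21.6.

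The protein-coding genes next to TH on chromosome 11 were mostly silent. INS, which lies 2588 bases away and encodes insulin, had 0 counts in all 12 libraries, as did INS-IGF2. On the other side, ASCL2, 96618 bases away, had at most 6 counts in any library and C11orf21 at most 2. TSPAN32, 130120 bases away, had 9 to 17 counts in NC and at most 1 with the hairpins. The main IGF2 entry (ENSG00000167244, 14326 bases away, a growth factor gene) had 0 to 6 counts in NC and 109 to 316 counts with the hairpins, or 5.42 to 23.0 CPM; it was named after its values were seen. A second IGF2 entry (ENSG00000284779) had at most 8 counts, and the authors' counting could split reads between the overlapping IGF2 entries.

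DDC, the enzyme after TH, was barely detected in any group. Its gene (ENSG00000132437; chromosome 7, 50458436 to 50565457, minus strand) overlaps FIGNL1 on the same strand and DDC-AS1 on the other. DDC had 1, 4 and 4 counts in NC, 7, 3 and 2 with shRNA1, 6, 2 and 0 with shRNA2, and 1, 0 and 2 with shRNA3. The groups overlapped, with means of 0.150 ± 0.0863 CPM in NC, 0.199 ± 0.131 in shRNA1, 0.155 ± 0.179 in shRNA2 and 0.0578 ± 0.0516 in shRNA3 (SD, n = 3 each). The ratio of NC to shRNA3 was 2.37, with a 95% exact counting interval of 0.592 to 13.6 that covers counting error only. A difference of that size was not detectable at this depth.

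DBH (ENSG00000123454; chromosome 9, 133635348 to 133659344, plus strand; DBH-AS1 lies on the other strand) was seen at a low level in NC and almost not at all with the hairpins. NC had 19, 14 and 15 counts, or 0.958, 0.689 and 0.760 CPM (0.802 ± 0.140, SD, n = 3). The shRNA1 and shRNA3 libraries all had 0 counts, and shRNA2 had 0, 0 and 3, so no hairpin library reached the lowest NC library. DBH was at least 5.36-fold lower with shRNA1 and at least 4.08-fold lower with shRNA3, against a floor of 3 counts per library. With shRNA2 NC was 14.1 times higher, with a counting interval of 4.56 to 71.0. That interval covers counting error only and is no test, because DBH passed the filter only through NC. PNMT, the enzyme after DBH, had 0, 2 and 6 counts in NC and 2 to 11 with the hairpins, and did not pass the filter. Apart from TH, no enzyme of synthesis thus had more than 11 counts in any hairpin library.

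The DBH promoter is shown because it holds a motif of the kind long studied in TH and DBH regulation, the core of the cyclic AMP response element. The 250 bases before the RefSeq start of DBH (GRCh38.p14, chr9:133636113-133636362, plus strand) are printed 5′ to 3′, with the element core TGACG in capitals:
DBH: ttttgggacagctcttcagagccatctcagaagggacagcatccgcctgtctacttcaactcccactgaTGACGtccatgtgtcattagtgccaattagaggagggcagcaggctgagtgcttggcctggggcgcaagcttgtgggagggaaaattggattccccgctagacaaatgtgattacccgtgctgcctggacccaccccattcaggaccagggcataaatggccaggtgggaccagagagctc
It was the only match to TGACG or its reverse complement CGTCA in that window, and 21.2% of 35116 RefSeq promoter windows of this length had at least 1. RefSeq windows were matched for 5 of the 7 genes; TH and GCH1 are named only.

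Of the 7 tetrahydrobiopterin genes listed, GCH1 and QDPR included, 6 passed the filter in both NC and hairpin libraries. Of these, 4 were called higher and none lower with shRNA1, 5 higher and 1 lower with shRNA2, and 4 higher and none lower with shRNA3. Of all tested genes, 26.8%, 24.6% and 26.4% were called higher with the 3 hairpins in order, and 30.6%, 28.4% and 27.6% lower. GCH1 (ENSG00000131979; chromosome 14, 54842008 to 54902852, minus strand) was at 33.6, 30.2 and 33.0 CPM in NC (32.3 ± 1.86, SD, n = 3). It was at 34.1, 32.2 and 23.1 CPM with shRNA1, 17.7, 21.1 and 23.0 with shRNA2, and 31.9, 29.4 and 26.2 with shRNA3. Only the shRNA2 libraries all lay below the NC libraries. GCH1 fell by 0.65 on the log2 scale with shRNA2 (SE 0.18; 1.57-fold lower; edgeR adjusted p = 0.00947), a call that missed the threshold without shRNA2 library 1 (adjusted p = 0.0521). The log2 differences were -0.11 (SE 0.18; edgeR adjusted p = 0.607) with shRNA1 and -0.15 (edgeR adjusted p = 0.508) with shRNA3. The enzyme that commits GTP to the cofactor was therefore not called higher with any hairpin.

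QDPR (ENSG00000151552; chromosome 4, 17460261 to 17512234, minus strand) was at 21.9, 21.8 and 20.8 CPM in NC. It was at 23.8, 22.2 and 19.4 CPM with shRNA1, 32.2, 28.0 and 28.1 with shRNA2, and 29.3, 28.2 and 25.4 with shRNA3. The shRNA1 libraries overlapped NC and those of shRNA2 and shRNA3 did not. QDPR rose by 0.45 on the log2 scale with shRNA2 (edgeR adjusted p = 0.0198), and the call was lost without NC library 3 (adjusted p = 0.0689), without shRNA2 library 1 (0.0831) and with no filter on low counts (0.0802). With shRNA3 the log2 difference was 0.36 and missed the threshold in edgeR (adjusted p = 0.0525), although it passed in DESeq2 (0.0188) and without shRNA3 library 3 (0.00754). With shRNA1 the log2 difference was 0.02 (SE 0.14; edgeR adjusted p = 0.917).

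The cofactor gene with the highest fold increase was GCHFR, whose product binds GTP cyclohydrolase and mediates its feedback inhibition by tetrahydrobiopterin. GCHFR had 20, 17 and 20 counts in NC and 463 to 726 in the hairpin libraries, with no overlap. Its mean was 0.953 ± 0.101 CPM in NC, 27.1 ± 0.819 with shRNA1, 28.4 ± 3.17 with shRNA2 and 44.6 ± 9.75 with shRNA3 (SD, n = 3 each). It rose 28.2-, 29.6- and 46.5-fold (edgeR adjusted p = 7.21e-08, 5.58e-08 and 3.22e-08). GCHFR overlaps DNAJC17 on the opposite strand, and reads of the pair cannot be told apart without strand, whose use is not stated.

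The opposite pattern was seen for PCBD1 (chromosome 10, 70882280 to 70888784, minus strand), whose product is pterin-4a-carbinolamine dehydratase, the enzyme that acts before QDPR in recycling. PCBD1 had 691, 723 and 670 counts in NC and 0 counts in all 9 hairpin libraries. It was at least 232-fold lower with shRNA1, at least 204-fold lower with shRNA2 and at least 177-fold lower with shRNA3 against the floor of 3 counts per library, and had passed the filter only through NC. Its paralogue PCBD2 rose 2.0-, 2.10- and 1.99-fold, from 5.25 ± 1.21 CPM in NC to 10.5 ± 1.19, 11.0 ± 1.04 and 10.4 ± 3.82 (SD, n = 3; edgeR adjusted p = 0.00906, 0.00666 and 0.0099). The shRNA3 call missed the threshold with only the groups compared (adjusted p = 0.0504), and PCBD2 overlaps CATSPER3 and several pseudogenes, so its counts are uncertain.

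PTS and SPR, which carry out the steps after GCH1, were also higher. PTS went from 6.84 ± 0.841 CPM in NC to levels 3.34-, 2.21- and 3.08-fold higher with the 3 hairpins in order (SD, n = 3; edgeR adjusted p = 7.9e-05, 0.00143 and 0.000142). PTS overlaps PLET1 on the other strand. SPR was at 26.0, 26.6 and 24.2 CPM in NC and rose 2.45-fold with shRNA1 and 2.84-fold with shRNA2 (edgeR adjusted p = 0.000617 and 0.000246). With shRNA3, SPR was at 33.2, 29.3 and 61.0 CPM, and library 3 was the high one. That 1.61-fold difference passed the test (edgeR adjusted p = 0.0251) but not when any single NC library was left out (adjusted p = 0.0588 to 0.0814).

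**Figure D2:**
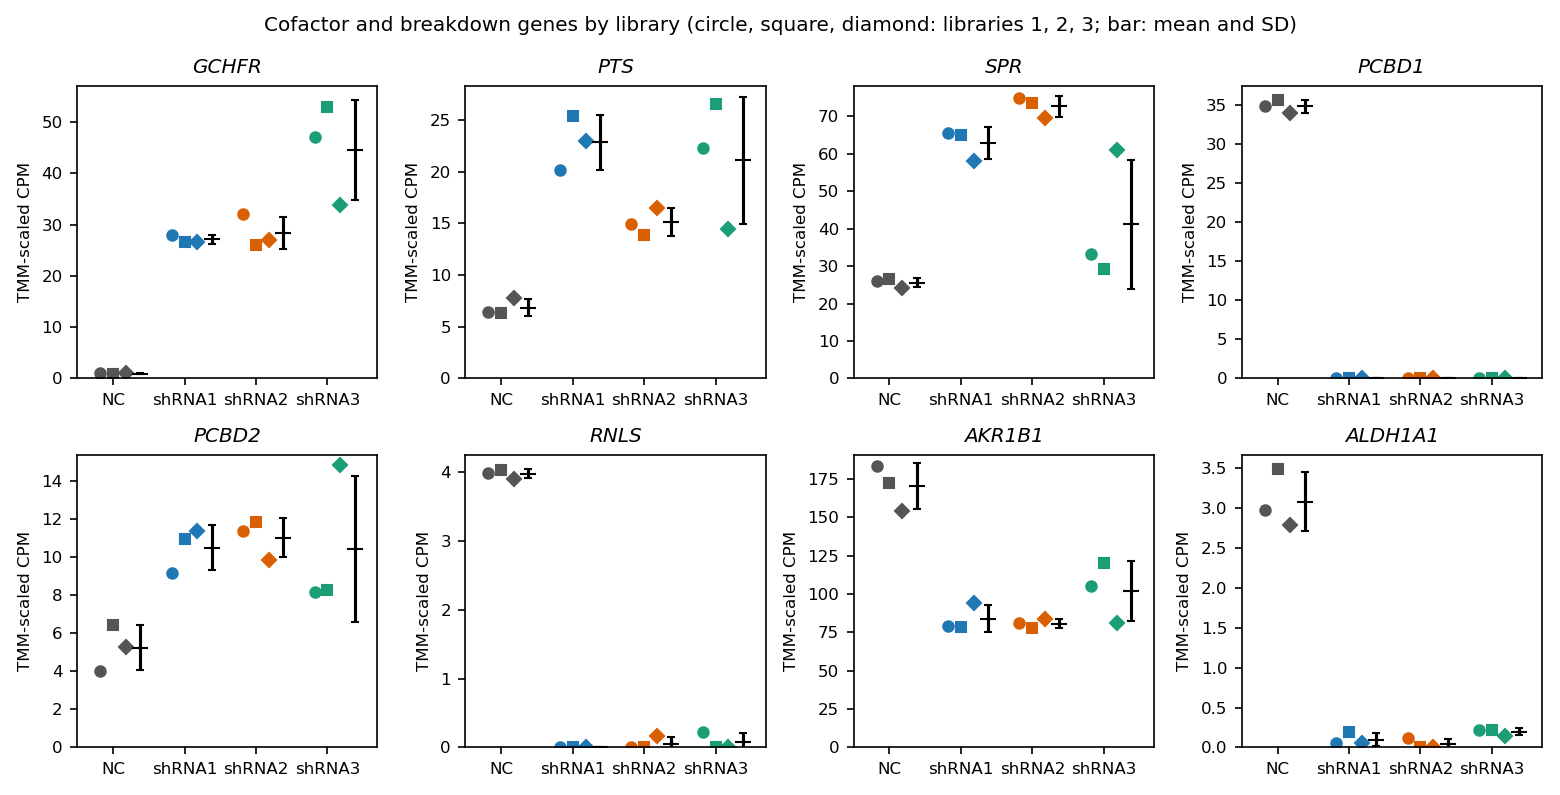
TMM-scaled CPM of 5 cofactor genes and of RNLS, AKR1B1 and ALDH1A1, 1 panel a gene on linear axes from 0; points are the libraries and black bars the mean and SD. GCHFR goes from 0.953 CPM in NC to 26.1 CPM or more with every hairpin, whereas PCBD1 goes from 34.8 CPM to 0.

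The monoamine oxidase promoters are shown because the pair lie side by side on the X chromosome and differed in these libraries. The windows are the 250 bases before the RefSeq start (GRCh38.p14), MAOA at chrX:43656049-43656298 on the plus strand and MAOB at chrX:43882451-43882700 on the minus strand, with each GC box core, GGGCGG or its reverse complement CCGCCC, in capitals:
MAOA: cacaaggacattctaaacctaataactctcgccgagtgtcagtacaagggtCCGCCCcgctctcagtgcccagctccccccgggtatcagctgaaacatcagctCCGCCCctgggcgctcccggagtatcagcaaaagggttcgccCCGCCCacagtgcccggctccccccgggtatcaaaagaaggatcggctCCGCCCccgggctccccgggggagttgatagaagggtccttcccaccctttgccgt
MAOB: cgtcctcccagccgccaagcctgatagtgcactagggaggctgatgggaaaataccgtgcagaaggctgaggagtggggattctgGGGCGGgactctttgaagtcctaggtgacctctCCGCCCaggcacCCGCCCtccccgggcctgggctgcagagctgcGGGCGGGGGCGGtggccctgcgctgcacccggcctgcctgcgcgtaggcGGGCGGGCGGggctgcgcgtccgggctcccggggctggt
The MAOA window held 4 matches and the MAOB window 7, overlapping matches included. At least 1 match was found in 42.6% of 35116 windows and 5 or more in 4.15%. A match describes the letters only.

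MAOB (ENSG00000069535; chromosome X, 43766611 to 43882447, minus strand) was the one gene of the 7, TH aside, that was called higher with all 3 hairpins. It had 13, 22 and 18 counts in NC, or 0.656, 1.08 and 0.912 CPM (0.883 ± 0.215, SD, n = 3). With shRNA1 it was at 1.69, 2.03 and 2.73 CPM, with shRNA2 at 5.73, 7.60 and 8.02, and with shRNA3 at 6.30, 5.02 and 4.56. Every hairpin library lay above every NC library. MAOB rose 2.42-fold with shRNA1 (log2 1.28, SE 0.31; edgeR adjusted p = 0.00404), 8.0-fold with shRNA2 (log2 3.00, SE 0.31; edgeR adjusted p = 1.3e-05) and 5.94-fold with shRNA3 (log2 2.57, SE 0.31; edgeR adjusted p = 3.96e-05). A call in the same direction with all 3 hairpins was common, at 16% of tested genes for higher.

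The hairpins also differed from each other. Of the 4 genes that passed the filter on both sides, 1 was called lower with shRNA1 than with shRNA2, 2 lower with shRNA1 than with shRNA3, and none between shRNA2 and shRNA3. Calls covered 12.3% of all tested genes between shRNA1 and shRNA2 (5.78% were above shRNA2 in shRNA1 and 6.53% below), 30% for the pair of shRNA1 and shRNA3 (11.9% above and 18.1% below) and 8.34% for shRNA2 and shRNA3 (1.91% above and 6.43% below). MAOB was lower with shRNA1 than with shRNA2 (log2 -1.72, SE 0.29; edgeR adjusted p = 0.00533) and than with shRNA3 (log2 -1.30; edgeR adjusted p = 0.0109), the latter missing the threshold with shRNA3 library 3 alone (adjusted p = 0.0668) and with only the groups compared (0.121). Between shRNA2 and shRNA3 the log2 difference was 0.43 (edgeR adjusted p = 0.296). For TH, too, the shRNA1 libraries were below those of shRNA2 and shRNA3. Some other fits gave more calls for the 4 genes: GCH1 and MAOA were lower with shRNA2 than with shRNA3 in DESeq2 (adjusted p = 0.0266 and 0.0343) and without shRNA3 library 3 (edgeR adjusted p = 0.00805 and 1.39e-07). With only the groups compared, GCH1, QDPR and MAOA differed between shRNA1 and shRNA2 (edgeR adjusted p = 0.0378, 0.0198 and 0.0372), and GCH1 did so without shRNA1 library 3 (0.0169). QDPR was lower with shRNA1 than with shRNA3 without shRNA3 library 3 (edgeR adjusted p = 0.0133) and in DESeq2 (0.0256), and in DESeq2 GCH1 and QDPR also differed between shRNA1 and shRNA2 (0.0224 and 0.0143).

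MAOA (ENSG00000189221; chromosome X, 43654907 to 43746824, plus strand) was at 39.1, 34.6 and 34.3 CPM in NC (36.0 ± 2.73, SD, n = 3). It was at 55.2, 45.9 and 43.3 CPM with shRNA1 and 57.8, 65.8 and 59.8 with shRNA2, all above NC. With shRNA3 it was at 173, 153 and 44.9 CPM (124 ± 69.1, SD, n = 3), and libraries 1 and 2 stood far above library 3. MAOA rose 3.44-fold with shRNA3 (log2 1.78, SE 0.37; edgeR adjusted p = 0.00184), but with library 3 alone the log2 difference was 0.35 and was not called (adjusted p = 0.0716). The log2 differences of 0.42 with shRNA1 (SE 0.36; edgeR adjusted p = 0.343) and 0.76 with shRNA2 (SE 0.36; edgeR adjusted p = 0.0979) missed the threshold, but both passed with only the groups compared, which leaves out shRNA3 and its spread (edgeR adjusted p = 0.0140 and 1.76e-07). MAOA was lower with shRNA1 than with shRNA3 (log2 -1.36; edgeR adjusted p = 0.0205), but the call was lost without any single shRNA1 library or shRNA3 library 1 or 2 (adjusted p = 0.0540 to 0.0799) and with only the groups compared (0.137). With shRNA3 library 3 alone it turned to 0.086 (adjusted p = 0.791).

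The balance between both oxidases was measured per kilobase of exon. MAOB made up 3.1%, 5.65% and 4.84% of their summed level in NC and 5.53%, 7.80% and 10.8% with shRNA1. It made up 15.9%, 18.1% and 20.4% with shRNA2 and 6.51%, 5.89% and 16.3% with shRNA3. MAOA was thus the main oxidase RNA in all 12 libraries, the shRNA2 shares were all above NC, and in shRNA3 only library 3 reached the shRNA2 range.

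**Figure D3:**
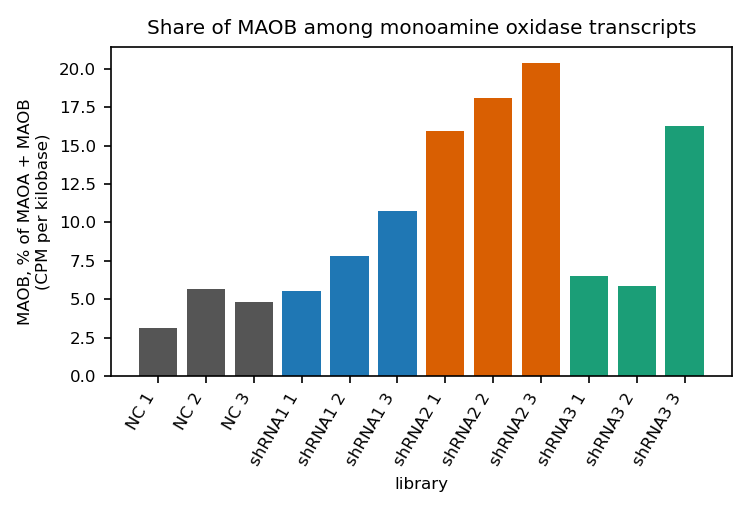
Share of MAOB in the summed CPM per kilobase of MAOA and MAOB, 1 bar a library, in percent on an axis from 0. NC libraries are at 3.1% to 5.65%, shRNA2 libraries at 15.9% to 20.4%, and shRNA3 library 3 at 16.3%.

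Of the 9 tested genes of breakdown, MAOA and MAOB included, 7 passed the filter in both NC and hairpin libraries. Of these, 1 was called higher and 1 lower with shRNA1, 2 higher and 1 lower with shRNA2, and 5 higher and 1 lower with shRNA3. Of all tested genes, 26.8%, 24.6% and 26.4% were called higher with the 3 hairpins in order, and 30.6%, 28.4% and 27.6% lower. The 5 with shRNA3, named after their values were seen, were MAOA, MAOB, ALDH2, AKR1A1 and SULT1A1, and with library 3 alone 2 were called higher, MAOB and SULT1A1 (edgeR adjusted p = 8.11e-05 and 0.0467). AKR1A1, for example, was at 183, 178 and 77.1 CPM with shRNA3 and 79.8 to 80.6 CPM in NC. The gene called lower with every hairpin was AKR1B1, an aldose reductase that can reduce the aldehydes made by monoamine oxidase. AKR1B1 was at 170 ± 15 CPM in NC and 2.03-, 2.11- and 1.67-fold lower (SD, n = 3; edgeR adjusted p = 0.00019, 0.000141 and 0.00176). RNLS, which encodes renalase, had 79, 82 and 77 counts in NC, 0 in each shRNA1 library, 0, 0 and 3 with shRNA2 and 3, 0 and 0 with shRNA3. RNLS was at least 26.6-fold lower with shRNA1, and NC was 70.1 times higher than shRNA2 (counting interval 23.7 to 342) and 62.8 times higher than shRNA3 (21.2 to 307). ALDH1A1, an aldehyde dehydrogenase, had 59, 71 and 55 counts in NC and 0 to 4 with the hairpins. RNLS and ALDH1A1 passed the filter only through NC and had to differ, so the counting intervals of RNLS are no test. SULT1A3, a sulfotransferase of catecholamines, has a near-identical copy, so its counts are uncertain, and it was not called.

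Of 8 storage and transport genes, 2 passed the filter in both NC and hairpin libraries. Of these, 1, SLC29A4, was called lower with every hairpin, against 19.7% of all tested genes. SLC18A1, a vesicular monoamine transporter, had 0 counts in all 12 libraries, the vesicular transporter SLC18A2 and the noradrenaline transporter SLC6A2 had at most 3 counts in any library, and the dopamine transporter SLC6A3 at most 13. SLC22A3, a low-affinity monoamine transporter found outside neurons, had 7, 8 and 5 counts in NC, 51 to 68 with shRNA1, 102 to 131 with shRNA2 and 15 to 70 with shRNA3, and passed the filter only through the hairpin libraries. SLC29A4, the plasma membrane monoamine transporter, fell 12.4-, 9.63- and 5.43-fold from 57.4 ± 3.75 CPM (SD, n = 3; edgeR adjusted p = 9.77e-06, 1.89e-05 and 0.000126). It overlaps TNRC18 on the other strand.

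**Figure D4:**
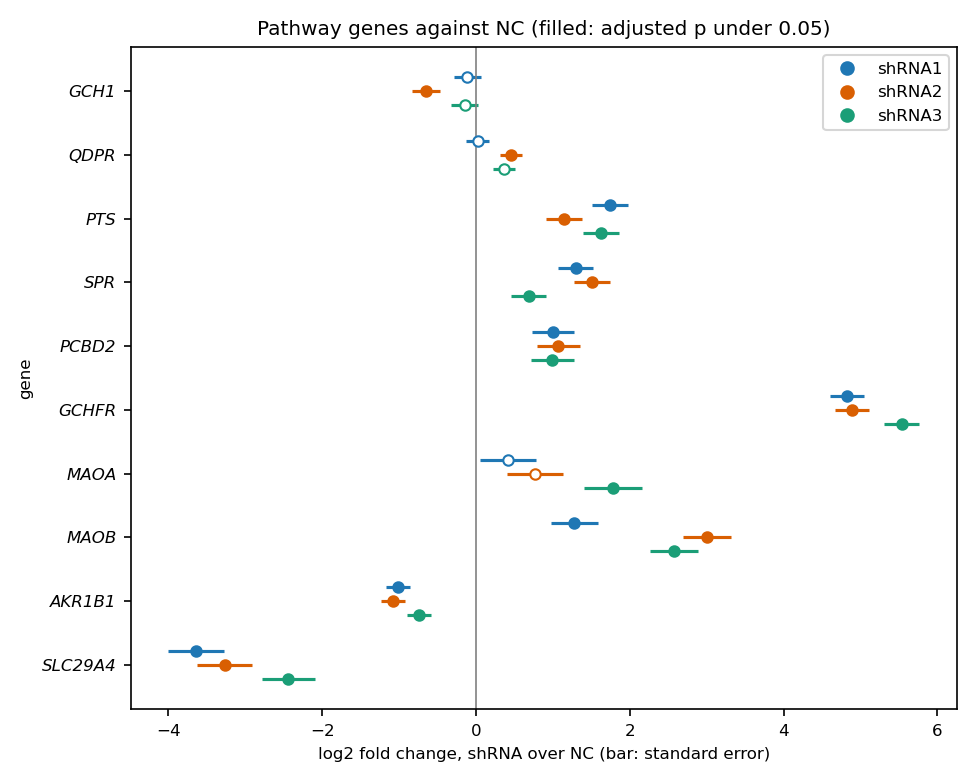
Log2 fold changes against NC for a selection of pathway genes that passed the filter in both NC and hairpin libraries, with the standard error as the bar. Filled points passed an adjusted p of 0.05. ALDH2, AKR1A1, SULT1A1 and SULT1A3, also named in the text, are not drawn. GCHFR, PTS, SPR, PCBD2 and MAOB lie to the right and AKR1B1 and SLC29A4 to the left for all 3 hairpins.

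The synthesis, cofactor, breakdown and transport lists without TH held 27 genes, of which 20 were tested. Of the 20, 5 had passed the filter through 1 side only, DBH, PCBD1, ALDH1A1 and RNLS through NC and SLC22A3 through the hairpin libraries, so that their direction was fixed by the filter. Among the other 15, 5 were called higher and 2 lower with shRNA1, 7 higher and 3 lower with shRNA2, and 9 higher and 2 lower with shRNA3, or 6 higher and 2 lower with shRNA3 library 3 alone. The median log2 fold change of the 15 was 0.25, 0.76 and 0.87, or 0.35 with shRNA3 library 3 alone, and that of all tested genes was -0.02, -0.05 and -0.03. With all 3 hairpins, 5 of the 15 were called higher (GCHFR, PTS, SPR, PCBD2 and MAOB) and 2 lower (AKR1B1 and SLC29A4), against 16% and 19.7% of all tested genes. These shares and the medians of all tested genes include genes that passed through 1 side only, which the 15 leave out. The 2 sets are therefore not alike. Over all 20, the counts were 6 higher and 6 lower with shRNA1, 8 and 7 with shRNA2, and 10 and 6 with shRNA3.

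Most markers of catecholamine cells were at or near 0 with and without TH. Of 10 sympathoadrenal and neuroendocrine markers, 4 had 0 counts in all 12 libraries: INSM1, PHOX2A, HAND2 and STMN2. The summed level of the list was 2.38 to 3.33 CPM in NC, 3.03 to 3.4 with shRNA1, 4.27 to 5.42 with shRNA2 and 2.91 to 5.31 with shRNA3, so it stayed below TH alone in each hairpin library. ISL1, a homeobox factor of sympathetic and other neurons, had 0, 2 and 0 counts in NC and 13 to 29 with the hairpins, and passed the filter only through the hairpin libraries. SYP, which encodes the vesicle protein synaptophysin, went the other way, with 26, 22 and 16 counts in NC and 2 to 13 with the hairpins, and passed only through NC. SCG2, the 1 marker that passed in both NC and hairpin libraries, had means of 0.836 CPM in NC and 1.49, 3.02 and 1.76 CPM with the hairpins. It was called higher with shRNA2 (3.59-fold, edgeR adjusted p = 0.00572), against 24.6% of all tested genes. With shRNA1 and shRNA3 it missed the threshold (edgeR adjusted p = 0.146 and 0.0658). The log2 difference was 1.10 with shRNA3 and 2.03 with shRNA3 library 3 alone. Summed markers of other cell types were 56.8 to 59.7 CPM in NC and 15.5 to 86.5 with the hairpins for fibroblasts, and 15.2 to 16.6 against 3.53 to 10.8 for melanocytes, which use a related tyrosine pathway. They were 3.65 to 5.02 against 0.464 to 2.55 CPM for blood cells. For endothelial cells they were 17.6 to 23.1 against 3.88 to 13.2 CPM. Members of a list did not all move alike. The fibroblast gene COL1A1 was at 40.3 to 43.0 CPM in NC and 14.8 to 85.3 with the hairpins. PDGFRB was at 9.35 to 11.7 and 0.445 to 1.29 CPM. The endothelial gene CDH5 was at 15.4 to 20.5 CPM in NC and 0.519 to 2.76 with the hairpins. PECAM1 went from 0.101 to 0.197 CPM to 2.09 to 9.68 and passed the filter only through the hairpin libraries. COL1A2, LUM and VWF were lower and passed only through NC. The part of these cell types in the results was not tested. Of 6 related aromatic amino acid enzymes, 1 was tested and it was not called with any hairpin.

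Of the listed transcription factors of catecholamine genes, 9 passed the filter in both NC and hairpin libraries. Of these, 2 were called higher and 1 lower with shRNA1, 2 higher and 5 lower with shRNA2, and 2 higher and 3 lower with shRNA3. Their median log2 fold change with shRNA3 was 0.20, but -0.99 with library 3 alone. The shares of all tested genes called higher were 26.8%, 24.6% and 26.4% with the 3 hairpins in order, and lower 30.6%, 28.4% and 27.6%. GATA2, a zinc finger factor of blood and sympathetic lineages, was at 16.6 ± 1.32 CPM in NC and 120 ± 21.8, 107 ± 4.57 and 104 ± 12.2 CPM with the hairpins (SD, n = 3 each). It rose 7.21-, 6.46- and 6.26-fold (edgeR adjusted p = 2.41e-07 to 3.42e-07). EGR1, an immediate early factor, fell 10.5-, 9.67- and 17.9-fold. Among 5 receptors that passed on both sides, 1 was called higher and 1 lower with shRNA1, 1 higher and 3 lower with shRNA2, and 1 higher and 2 lower with shRNA3 (1 and 3 with library 3 alone), against the same shares. The alpha2-adrenoceptor genes went opposite ways: ADRA2C rose 1.92-, 2.24- and 3.23-fold and ADRA2B fell 9.97-, 3.52- and 4.48-fold. The shRNA1 call of ADRA2C was lost without NC library 2 (edgeR adjusted p = 0.0736), without shRNA1 library 2 (0.0707) and with no filter (0.0574). The dopamine receptor gene DRD1 had 10 to 12 counts in NC and 0 in every hairpin library, and passed the filter only through NC.

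The genes with the pattern most like that of TH were found among 64 genes that had at most 3 counts in every NC library and a mean of at least 5 CPM with the hairpins. Likeness was Pearson's r of log2(CPM + 1) over the 9 hairpin libraries, which share their scaling, and is a description. CACNG6, a calcium channel gamma subunit, came first at r = 0.975, then LDOC1 at 0.949, the basement membrane gene NID1 at 0.929, the somatostatin receptor gene SSTR5 at 0.911 and the myosin gene MYO7B at 0.893. Over all 64 candidates r ranged from -0.915 to 0.975 with a median of 0.0796. After TMM scaling all 5 were highest in shRNA3 libraries 1 and 2, where TH was highest, but on unscaled totals SSTR5 was highest in shRNA3 library 3 at 22.4 CPM and TH in shRNA3 library 1, at 54.0 CPM, was below shRNA2 library 1 at 54.7 CPM. CACNG6 ran from 2.09 to 37.9 CPM. None of the 5 is an enzyme of the pathway, but this was fixed by the limits on the candidates. Apart from TH, no listed enzyme of synthesis, cofactor or breakdown met those limits, so none could be among the 64.

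**Figure D5:**
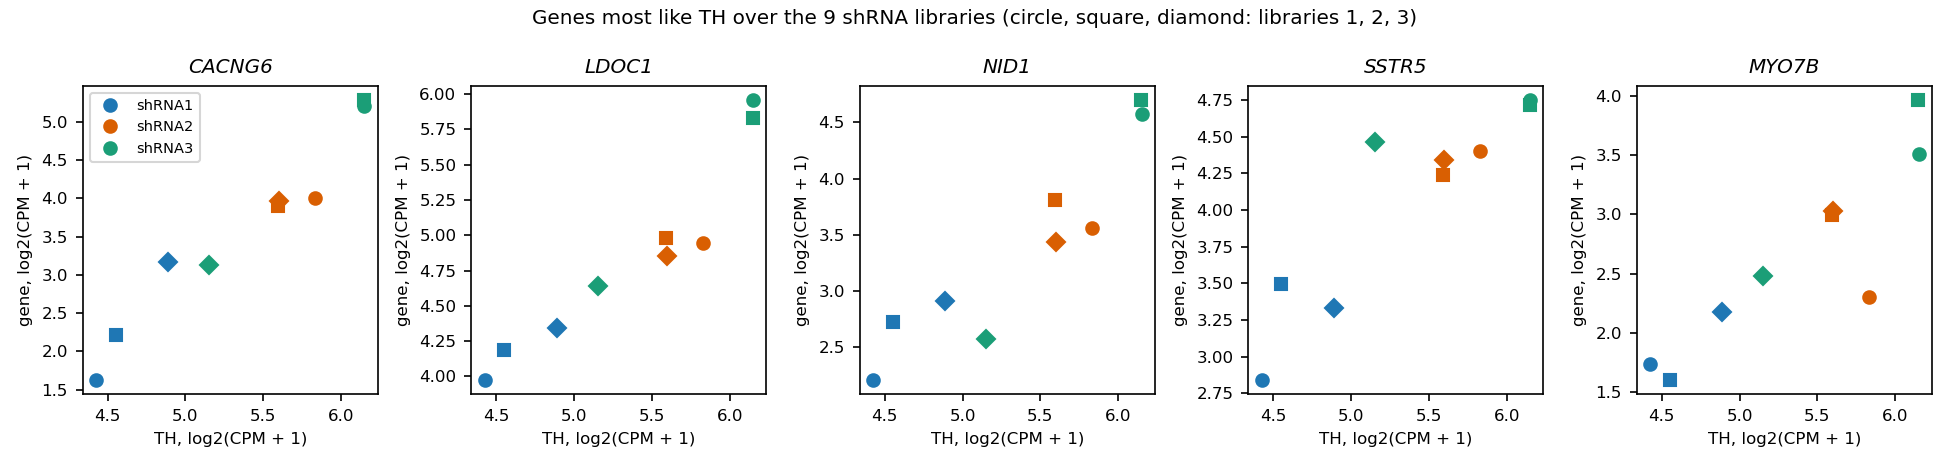
Level of the 5 genes most like TH against TH, 1 panel a gene, as log2(CPM + 1) in the 9 hairpin libraries. Libraries 1 and 2 of shRNA3 sit at the upper right of every panel, and r is 0.975 for CACNG6 and 0.893 for MYO7B.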

How the data were processed

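RNA was sequenced from 12 SCC-15 libraries, 3 for each of 4 groups, with the NEBNext Ultra kit per the labels' protocols. The authors deposited estimated counts per gene, not normalized, in 1 table; 13.8% of its values were not whole, and all were rounded. The submitters' processing notes name HISAT2, HTSeq 0.11.2 and GRCh38; the annotation and the use of strand are not given in the sources used here. Symbols and coordinates came from the reference tables (GRCh38, GENCODE release 29). Genes were filtered with filterByExpr (minimum count 10, minimum total 15), scaled by TMM (factors 0.771 to 1.11) and tested in 1 edgeR 4.0.16 quasi-likelihood fit (R 4.3.3) over all 12 libraries, with Benjamini-Hochberg adjustment over all 17532 genes tested; DESeq2 1.42.0 was an alternative. Replicates differed by more than sampling noise and none was merged. Intervals and the floor of 3 counts cover counting error only. The scripts were tested on simulated data.

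The 7 genes, the pathway and marker lists and the tests were chosen with earlier results of these data known. Named genes were the 7 genes, list members that passed with all 3 hairpins in 1 direction or lie next to a member in the pathway, the 3 protein-coding neighbours of TH on each side and the 5 genes most like it. The keratin and other keratinocyte genes, the markers of other cell types, ISL1, SYP, SCG2, ALDH2, AKR1A1, SULT1A1, SULT1A3 and the main IGF2 entry were named after their values were seen. Some genes of the pathway and marker lists are not reported here, and list counts leave them out.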

Additional observations from a re-analysis of the deposited data

How the results depend on the processing

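Of 801 alternative values for single genes that passed the filter in both NC and hairpin libraries, 748 kept their direction and side of the threshold, 26 lost the call, 16 gained it and 11 changed sign. Those 11 were small or rested on shRNA3: GCH1 in shRNA1 against NC was 0.047 (log2) without shRNA1 replicate 3, with a range of -0.21 to 0.047 leaving out 1 shRNA1 replicate. QDPR in shRNA1 against NC was -0.0076 with DESeq2 size factors, -0.074 with a mean of at least 50 counts, -0.0074 in DESeq2, -0.0065 without NC replicate 3 and -0.037 without shRNA1 replicate 1, with a range of -0.037 to 0.10 leaving out 1 shRNA1 replicate. GCH1 in shRNA1 against shRNA3 was -0.066 to 0.19 leaving out 1 shRNA1 replicate (below 0 without replicate 1 or 2) and -0.026 without shRNA3 replicate 3. With shRNA3 reduced to library 3, assumed to vary like the other groups, MAOA was 0.086 in shRNA1 against shRNA3 and 0.43 in shRNA2 against shRNA3. With a mean of at least 50 counts, which tests fewer genes, 4 pathway genes were lower with shRNA2 and 3 with shRNA3. Leaving out 1 replicate gave 8677 to 9698 calls in shRNA1 against NC, 7960 to 8174 in shRNA2 against NC and 8314 to 13330 in shRNA3 against NC. Pathway genes called were 6, 7 to 8 and 8 to 11 higher and 6, 6 to 7 and 6 lower. These pathway counts, and those with a mean of at least 50 counts, include genes whose direction was fixed by the filter. They are no check of those genes.

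The count of genes called between hairpins depended on the fit; the cause was not tested. For shRNA1 against shRNA2 it was 2158, with 1420 without a filter, 3464 in DESeq2, 6252 with only the groups compared, 530 at an adjusted p under 0.01 and 559 to 2795 leaving out 1 replicate. For shRNA1 against shRNA3 it was 5258, with 0 in edgeR with only the groups compared (4295 at an unadjusted p under 0.05), 1547 with shRNA3 library 3 alone, 1249 at 0.01 and 1788 to 11573 leaving out 1 replicate, the highest without shRNA3 replicate 3. For shRNA2 against shRNA3 it was 1462, with 911 without a filter, 3793 in DESeq2, 0 in edgeR with only the groups compared (3186 unadjusted), 244 with library 3 alone, 4 at 0.01 and 0 to 10799 leaving out 1 replicate; it was 0 in edgeR without any shRNA2 replicate or shRNA3 replicate 2 (3406 to 4248 unadjusted) and 10799 without shRNA3 replicate 3.

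Same-numbered libraries did not deviate together (mean correlation -0.0043 over 18 pairs), so the numbers give no pairing. A replicate block gave 9689, 8949 and 9116 calls against NC for shRNA1, shRNA2 and shRNA3, and 1498, 4458 and 378 between hairpins, and changed no call of the 7 genes. TH means moved by less than the spread between replicates under DESeq2 size factors, unscaled totals and leaving out 1 replicate (21.5 to 25.5, 47.4 to 51.7 and 52.2 to 70.0 CPM). Depth limits DDC, DBH and PNMT, whose levels were near the floor.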
